A study of Caenorhabditis elegans with 2 samples.

Results

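Nuclear hormone receptors are transcription factors that pair a zinc-finger DNA-binding domain with a ligand-binding domain, and many of them change activity when a small lipophilic ligand binds. The nematode Caenorhabditis elegans has an unusually large family of them, most of which descend from a relative of vertebrate HNF4, and many of the genes lie in tandem arrays on chromosome V. Receptors of this family control moulting, fat metabolism, responses to toxins and starvation, and the identity of several cell types, and some act on the genes of other receptors. The factor mapped here, NHR-11, is itself a member, so the question was which receptor genes carried peaks beside their 5' ends.

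The members were the protein-coding genes with a name starting in nhr- in the Ensembl WBcel235 annotation, a rule that uses no measured value. The family itself was chosen with earlier results of these data known. It held 269 genes among 19973 protein-coding genes on the 6 chromosomes. For each gene the strongest peak whose summit lay within 1000 bp of the gene's 5' end was taken from each list. Chromatin immunoprecipitation sequencing (ChIP-seq) was done on whole late embryos, both sexes pooled, of strain OP305, which carries the unc-119(ed3) mutation on chromosome III and the insertion wgIs305 encoding eGFP-tagged NHR-11. The 2 biological replicates form 1 group, and both carry the same mutation and insertion. Whole embryos were used, so the cells that hold the factor were not separated from the others, and the lists hold no measure of the tagged protein by which the label could be checked. The depth of both libraries is unknown, since the lists carry no counts of reads.

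The lists differ widely in reach. A peak is a stretch of DNA called as enriched, its summit the position of highest enrichment, and its signal the strength given by the authors' caller. The strict list, which the authors thresholded for reproducibility between replicates, held 101 peaks, the pooled list 9931, and the replicate lists, which run into the background by design, held 25795 and 29222. No receptor gene had a strict peak within the window (0 of 269; a count of 0 allows at most 1.12%), and 0.36% of all protein-coding genes had one. Below that threshold 60 receptor genes (22.3%, 95% Wilson interval 17.7 to 27.6%) had a pooled peak, next to 20.7% of all protein-coding genes. A replicate 1 peak lay beside 129 receptor genes (48%, against 45.1% of all protein-coding genes) and a replicate 2 peak beside 139 (51.7%, against 49.5%). Both replicates had a peak beside 86 receptor genes (32%, interval 26.7 to 37.8%), and 26.8% of all protein-coding genes had peaks in both and no strict peak. Replicate 1 alone had a peak beside 43 receptor genes (16%), replicate 2 alone beside 53 (19.7%), and neither beside 87 (32.3%). Over all 19973 protein-coding genes, 9014 had a replicate 1 peak, 9891 a replicate 2 peak and 5418 both, strict ones included. The split into 1 replicate alone or neither was not tabulated for them, so it is not read as particular to receptor genes. The intervals cover counting error only and treat genes as independent, although neighbouring genes can share a summit. Over all chromosomes, the coding-gene shares of pooled peaks and of peaks in both replicates lay within the receptor genes' intervals.

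The sequences around the strongest receptor sites are shown because these sites ranked highest and the later motif counts refer to them. Each is the 101 bases centred on the pooled summit, on the plus strand of ce11 (RefSeq WBcel235), for the 6 receptor genes with the strongest pooled peak among those with peaks in both replicates. Capitals mark GAGAGA or its reverse complement TCTCTC. They lie at chrX:17513685-17513785, chrX:13251612-13251712, chrV:10081580-10081680, chrV:1743652-1743752, chrIII:131035-131135 and chrV:5791084-5791184, in that order.
nhr-1: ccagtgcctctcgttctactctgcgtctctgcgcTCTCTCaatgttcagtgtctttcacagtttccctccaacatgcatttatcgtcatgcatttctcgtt
nhr-32: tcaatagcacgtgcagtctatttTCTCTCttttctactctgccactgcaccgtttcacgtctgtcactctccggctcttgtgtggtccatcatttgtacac
nhr-205: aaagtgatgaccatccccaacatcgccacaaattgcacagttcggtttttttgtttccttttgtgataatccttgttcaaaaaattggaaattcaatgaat
nhr-256: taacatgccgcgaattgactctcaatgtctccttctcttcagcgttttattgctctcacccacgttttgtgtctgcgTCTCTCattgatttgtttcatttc
nhr-280: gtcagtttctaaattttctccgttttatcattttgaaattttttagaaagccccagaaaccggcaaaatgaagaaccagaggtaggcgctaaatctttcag
nhr-142: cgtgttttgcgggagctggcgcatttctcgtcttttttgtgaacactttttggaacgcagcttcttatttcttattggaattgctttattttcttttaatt

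The gene nhr-1 on chromosome X (WBGene00003600) had the strongest receptor peak. Its pooled peak (chromosome X, 17513557 to 17513912) had a signal of 54.2 and ranked 116 of 9931, with the summit intergenic and 328 bp upstream of the 5' end. Replicate 1 gave it 26.7 (rank 437) and replicate 2 gave it 28.3 (rank 142), with summits 50 bp apart. It was high in both replicates, and nhr-1 was the single receptor gene within the top 500 of both lists, where 60 protein-coding genes (0.300%) stood. The weakest strict peak had a signal of 55.2, so the nhr-1 peak missed the strict list by 0.989, with 14 pooled peaks between. Its false discovery rate in the pooled list was 0.108, below the highest rate within the strict list (0.134); of the 9830 pooled peaks outside the strict list, 64 were at or below that rate, and nhr-1 was the 1 receptor gene among them. The authors' strict list on the older ce10 build was longer, with 137 peaks and a lowest signal of 52.8. That list held 1 peak on chromosome X within 0.01 of the nhr-1 signal, at 54.2 and also 356 bp wide; coordinates were not converted between builds, so its identity with the nhr-1 site was not tested.

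The second strongest site lay at nhr-32 (WBGene00003626), also on chromosome X. Its pooled signal was 46.8 (rank 265; chromosome X, 13251484 to 13251839), with an intergenic summit 302 bp upstream. Replicate 1 gave 30.6 (rank 229) and replicate 2 gave 20.1 (rank 965). The 2 replicate peaks overlapped, with summits 108 bp apart, and nhr-1 and nhr-32 were the only 2 receptor genes within the top 2000 of both replicates; 203 protein-coding genes (1.02%) were.

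The next 4 sites each ranked far higher in one replicate than in the other. At nhr-205 (chromosome V, 10081452 to 10081807) the pooled signal was 40.4, with 25.2 in replicate 1 (rank 644) and 14.2 in replicate 2 (rank 5535). The summit fell in a coding exon of nhr-205, 146 bp downstream of its 5' end, and the peak's sequence matched 108 other places in the genome. At nhr-256 (chromosome V, 1743524 to 1743879), with a summit 69 bp upstream, the order of the replicates was the opposite. Its pooled signal was 40.4, with 16.4 in replicate 1 (rank 5622) and 24.4 in replicate 2 (rank 299). At nhr-280 on chromosome III (130907 to 131262) the pooled signal was 39.8, with 26.6 in replicate 1 and 13.7 in replicate 2. Its summit fell in a coding exon of the neighbouring gene C29F9.2, whose 5' end was nearer (138 bp against 335 bp). At nhr-142 (chromosome V, 5790956 to 5791311) the pooled signal was 36.7, with 15.6 in replicate 1 and 21.5 in replicate 2. Here too the 5' end of another gene, F44E7.9, was nearer (96 bp against 581 bp). At both of these receptor genes the summit thus lay closer to the 5' end of another gene.

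**Figure D1:**
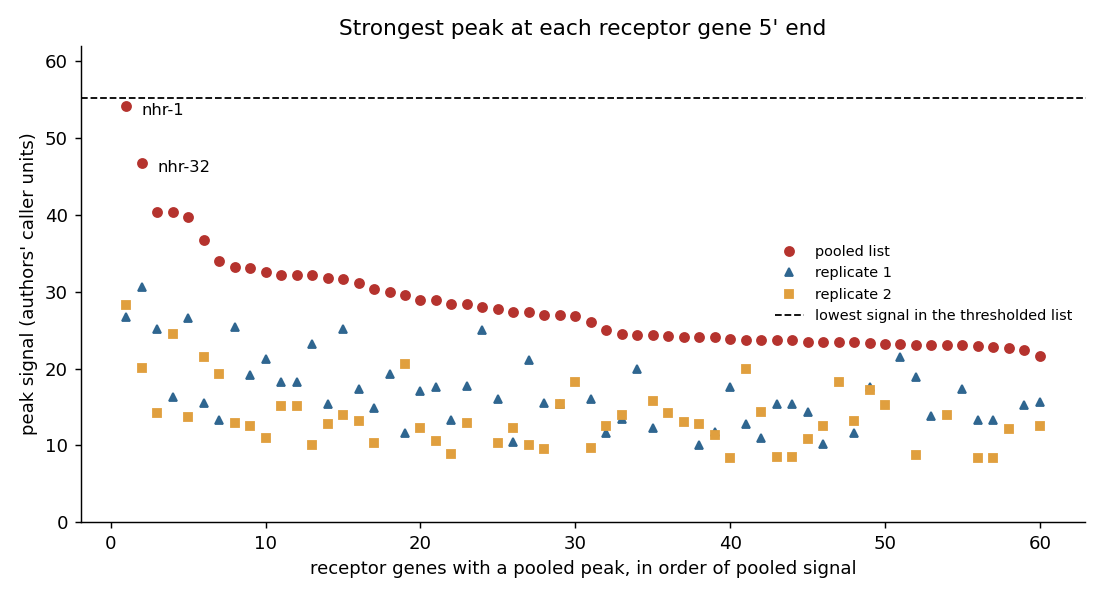
Signal of the strongest peak within 1000 bp of the 5' end (vertical axis, in the units of the authors' caller) of the 60 receptor genes with a pooled peak, in order of pooled signal (horizontal axis). Circles are the pooled list, triangles replicate 1, squares replicate 2 (absent where a replicate had no peak), and the dashed line is the lowest signal in the strict list (55.2). The nhr-1 peak, at 54.2, lies just under the line, nhr-32 follows at 46.8, and the lowest member is at 21.7.

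Weaker pooled peaks lay beside the 19 receptor genes that came next when only those with peaks in both replicates were ordered by pooled signal. On chromosome V, nhr-44, nhr-56, nhr-213 and nhr-112 had pooled signals of 34.0, 33.3, 33.2 and 32.6. The divergent pair nhr-130 and nhr-212 on chromosome V shared 1 intergenic peak (483988 to 484343) with a pooled signal of 32.2, 827 and 691 bp upstream of their 5' ends. In that shared peak replicate 1 gave 18.3 and replicate 2 gave 15.2, with summits 23 bp apart. The peak at nhr-69 on chromosome I (9881889 to 9882244), a receptor linked to insulin secretion from sensory neurons, had a pooled signal of 32.2 but was uneven, with 23.3 in replicate 1 (rank 997) and 9.99 in replicate 2 (rank 17724). The other members of this group were nhr-177 (31.8), nhr-119 (31.7), nhr-227 (31.1), nhr-91 (30.4), nhr-204 (29.6), nhr-209 (29.0), nhr-74 (29.0), nhr-57 (28.5), nhr-40 (28.4), nhr-19 (27.8), nhr-47 (27.4) and nhr-15 (27.4), all values being pooled signals. Another coding gene's 5' end was nearer at nhr-213 (str-60, 554 bp against 671 bp), nhr-40 (T03G6.7, 281 bp against 317 bp) and nhr-15 (phf-10, 276 bp against 880 bp). Of the 25 genes in that order, 16 lay on chromosome V and 4 on chromosome X, and the strongest peaks of the 2 replicates overlapped at 17 of them. The pooled peak overlapped a peak of both replicates at 23 of the 25, but not at nhr-204 or nhr-15. Such an overlap was found at 2651 of the 4127 protein-coding genes with a pooled peak. The strongest replicate peaks overlapped at 54.5% of protein-coding genes with peaks in both. The 25 were selected by peaks in both replicates and by pooled signal, so their counts are not directly comparable with these. No receptor peak had a false discovery rate of 0.05 or less in the pooled list or in either replicate list.

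Of 9 receptors with counterparts in insects or vertebrates, 3 had a pooled peak (20.7% of all protein-coding genes did) and 4 had a peak in both replicates (26.8% did), too few genes to place either share. The GCNF-related nhr-91 had a pooled signal of 30.4 in an intron, 762 bp downstream of the 5' end (rank 2407), where it overlapped a peak of each replicate. Replicate 1 gave 14.9 and replicate 2 gave 10.4 as their strongest peaks, which lay 772 bp apart. At nhr-85, a Rev-erb and E75 relative, the pooled signal was 23.7 (rank 7088), with 11 in replicate 1 and 14.3 in replicate 2 and summits 5 bp apart. At nhr-25, the FTZ-F1 relative needed for moulting and epidermal development, the pooled signal was 23.5, with 14.4 in replicate 1 and 10.9 in replicate 2, and these strongest replicate peaks were 850 bp apart, although the pooled peak overlapped a peak of each replicate. The DAF-12 relative nhr-48 had 11.1 in replicate 1 and 13.5 in replicate 2 with no pooled peak. The DAF-12 relative nhr-8 and nhr-41, related to TR2 and TR4, had a peak in replicate 2 alone (11.7 and 7.93). The NR4A relative nhr-6, the ROR relative nhr-23, a moulting regulator, and the tailless relative nhr-67 had none in any list.

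Among 13 receptors with known roles in metabolism or stress, 3 had a pooled peak and 4 had peaks in both replicates, next to 20.7% and 26.8% of all protein-coding genes. At nhr-57, a gene induced in low oxygen, the pooled signal was 28.5 in the 5' UTR, 41 bp downstream of the 5' end. Replicate 1 gave 13.3 (rank 11635) and replicate 2 gave 8.93 (rank 23056), both low in their lists although their summits lay 17 bp apart. At nhr-62, required for the long life of food-restricted animals, the pooled signal was 26.1, with 16 and 9.68 in replicates 1 and 2. At nhr-66, which acts with nhr-49 in lipid metabolism, the pooled peak (26.9) had a replicate 2 peak (18.3) and none in replicate 1. The desaturase regulator nhr-80 had 19.6 in replicate 1, at exactly 1000 bp, and 12.6 in replicate 2, with no pooled peak in the window. The coding gene H10E21.1 had the same replicate signals. Its pooled peak, 112 bp downstream of its 5' end, had the same signal (22.6) as the pooled summit just outside the nhr-80 window. The gene nhr-31, needed for the excretory cell, had 10.8 and 8.91 in replicates 1 and 2. The fat metabolism and fasting regulator nhr-49 had a replicate 2 peak alone (11.8), whereas nhr-10, a regulator of propionate breakdown, and nhr-86, an immune regulator, had replicate 1 peaks alone (11.8 and 10.4). Neither replicate had a peak at nhr-13, nhr-68, nhr-114, nhr-14 or nhr-176. Of 3 receptors with developmental roles, nhr-40, which acts in embryonic muscle development, had a pooled peak of signal 28.4 in an intron, and this peak overlapped a peak of each replicate. The strongest replicate peaks, 17.8 and 12.9 in replicates 1 and 2, lay 551 bp apart. The others were nhr-60, with 22.5 in the pooled list and a replicate 1 peak only, and the early embryonic gene nhr-2, with none.

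The tagged factor's own gene, nhr-11 on chromosome IV (WBGene00003610), had no peak in any list within the window or within its 3620 bp body. The nearest pooled summit lay 21407 bp downstream of its 5' end, with a signal of 37.5, and the nearest replicate summits 19710 and 18619 bp downstream. At the edge of the window, nhr-281 and nhr-15 were just inside, with pooled summits at 856 and 880 bp (signals 24.1 and 27.4), and nhr-88 and nhr-80 just outside, at 1004 and 1015 bp (33.2 and 22.6).

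Receptor genes are unevenly spread over the chromosomes. Chromosome V held 167 of the 269 (62.1%), against 25% of all protein-coding genes. Of these 167, 54 (32.3%, interval 25.7 to 39.8%) had peaks in both replicates, compared with 22.5% of all protein-coding genes of chromosome V. By the stricter count, a pooled peak overlapped peaks of both replicates at 22 of the 167 (13.2%). Its interval, 8.86 to 19.1%, held the coding share of chromosome V, 10.1%. For peaks in both replicates, chromosome X had 10 of 23 (43.5%, interval 25.6 to 63.2%), against 30.2% there. Chromosomes II and III had 7 of 15 (46.7%, against 29.2%) and 5 of 8 (62.5%, against 30.2%), numbers too small to place either share closely. The order was reversed on chromosome I, with 5 of 23 (21.7%, against 27.3%), and on chromosome IV, with 5 of 33 (15.2%, against 24.7%). For pooled peaks, given below, the receptor share was under the coding share on each of chromosomes I to IV. Applying each chromosome's coding-gene share to its receptor genes gives 65.7 genes with peaks in both replicates, where 86 were counted, and 49 with a pooled peak, where 60 were counted. Outside chromosome V the receptor share was 31.4% (32 of 102), next to 28.2% of coding genes.

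On the smaller sets the genes with peaks in both replicates were few enough to name; apart from those given above, these names were chosen after their values were seen. On chromosome I they were nhr-62, nhr-69, nhr-74, nhr-85 and nhr-174. Chromosome II had nhr-19, nhr-21, nhr-22, nhr-61, nhr-109, nhr-119 and nhr-273. Chromosome III had nhr-20, nhr-80, nhr-121, nhr-239 and nhr-280, and chromosome IV nhr-31, nhr-87, nhr-105, nhr-274 and nhr-277. Chromosome X had nhr-1, nhr-17, nhr-25, nhr-32, nhr-40, nhr-45, nhr-48, nhr-91, nhr-173 and nhr-255. The nhr-255 peak (24.5) matched 5 other places in the genome, and of the receptor genes with a pooled peak this held for only 2 more, nhr-205 and nhr-237.

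**Figure D2:**
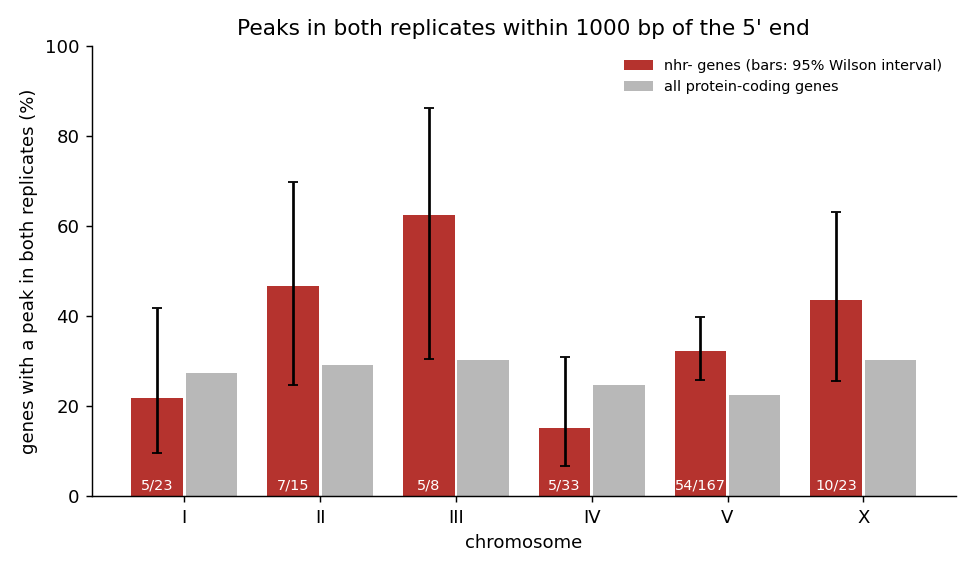
Share of receptor genes (red bars, with 95% Wilson intervals and counts) and of all protein-coding genes (grey bars) with a peak in both replicates and no strict peak, by chromosome. The receptor share is 32.3% against 22.5% on chromosome V and lies below the coding share on chromosomes I and IV.

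Chromosome V was divided, after its share was seen, into 3 segments of equal length. The left segment held 78 receptor genes, of which 28 (35.9%) had peaks in both replicates, against 23% of its coding genes. In the middle segment it was 15 of 41 (36.6%, against 23.3%), and in the right segment 11 of 48 (22.9%, against 21.2%). Pooled peaks followed a different order, with 24.4% (against 16.2%) in the left segment, 17.1% (against 17.7%) in the middle and 20.8% (against 14.2%) in the right. When receptor genes with 5' ends no more than 20000 bp apart were linked, 87 of the 167 fell into 12 clusters of at least 4 genes. Peaks in both replicates were found at 30 of these 87 (34.5%) and at 24 of the other 80 (30%). The clusters themselves varied, and those named here were chosen after their values were seen. The cluster of 12 from nhr-123 to nhr-131 (chromosome V, 451451 to 494370) had 5 genes with peaks in both replicates and 4 with a pooled peak. The cluster of 7 from nhr-178 to nhr-238 (1607953 to 1629432) had 5 and 4, the pooled signals being 31.8 at nhr-177, 28.03 at nhr-110, 24.3 at nhr-238 and 23.4 at nhr-237. In the cluster of 8 from nhr-51 to nhr-53 (15674007 to 15702363), 1 gene had peaks in both replicates and none had a pooled peak.

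On chromosome X, 12 of 23 receptor genes (52.2%, interval 33.0 to 70.8%) had a pooled peak, against 23.3% of coding genes there; this chromosome was singled out after its values were seen. On chromosome V the pooled share was 21.6% (36 of 167), against 16.1%. Pooled shares on chromosomes I and II were 21.7% (5 of 23, against 22.0%) and 20% (3 of 15, against 23.5%). On chromosomes III and IV they were 12.5% (1 of 8, against 23.4%) and 9.09% (3 of 33, against 19.1%). Beside nhr-1, nhr-32, nhr-91 and nhr-40 the chromosome X peaks were at nhr-27 (pooled signal 30.0), nhr-255 (24.5), nhr-281 (24.1), nhr-25 (23.5), nhr-17 (23.5), nhr-173 (23.4), nhr-35 (23.1) and nhr-167 (22.7). Most of these signals were low, and at 4 of the 12 genes (nhr-27, nhr-35, nhr-167 and nhr-281) only 1 replicate had a peak. The pooled peak overlapped a peak of both replicates at 7 of the 12, and at 2651 of the 4127 protein-coding genes of all chromosomes with a pooled peak.

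Replicate agreement at receptor genes was like that at other coding genes. Among the 86 genes with peaks in both replicates, the strongest peaks overlapped each other at 44 (51.2%), against 54.5% of the 5418 protein-coding genes with peaks in both, strict ones included. The summits lay a median of 350 bp apart, against 282 bp, and within 100 bp at 23 of the 86. Spearman's rho between the replicate signals was 0.254 over the 86 genes and 0.169 over the 5418, both across genes that share libraries. Signal in replicate 1 over replicate 2, on the log2 scale, had a median of 0.34 (SD 0.49, n = 86 genes), against 0.23 (SD 0.53); scaling between the replicates was not given. A pooled peak overlapped peaks of both replicates at 39 receptor genes (14.5%, interval 10.8 to 19.2%), against 13.3% of all protein-coding genes. Of the 60 receptor genes with a pooled peak, 46 had peaks in both replicates and 14 (23.3%) lacked a peak in at least 1. Of the 4127 protein-coding genes with a pooled peak, 3039 had peaks in both replicates, strict ones included. Among genes with peaks in both replicates, 53.5% of receptor genes also had a pooled peak, against 56.1% of coding genes.

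**Figure D3:**
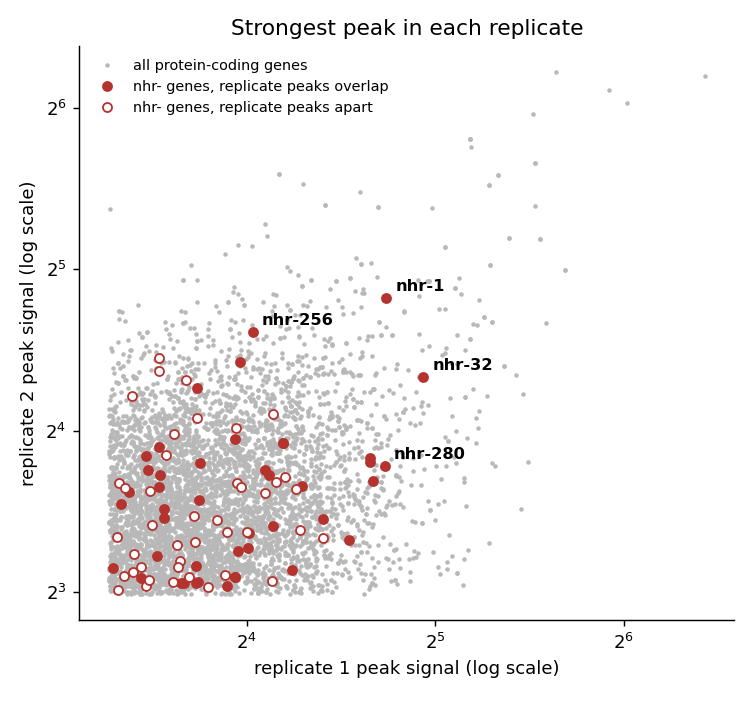
Signal of the strongest replicate 1 peak (horizontal) and replicate 2 peak (vertical), both on log scales in the units of the authors' caller, for genes with peaks in both replicates. Grey points are all protein-coding genes, filled circles receptor genes whose replicate peaks overlap (44) and open circles those whose replicate peaks do not. The nhr-1 point lies at 26.7 and 28.3, and nhr-32 at 30.6 and 20.1.

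In strength the receptor peaks lay close to those of other coding genes. A lower share of them was upstream, a difference that was not tested. The median pooled signal was 26.5 over the 60 receptor genes (range 21.7 to 54.2) and 26.5 over the 4127 protein-coding genes with a pooled peak, which reached 157. Signals of 40 or more were found at 4 of the 60 (6.67%), against 7.63%. The summits lay a median of 369 bp from the 5' end, against 395 bp. They were upstream at 31 of the 60 genes (51.7%), against 61.7% of coding genes, and downstream at 29. By annotation 27 of the 60 summits were intergenic, 14 in coding exons, 12 in introns, 6 in 5' UTRs and 1 in a noncoding exon. The annotation was not counted over coding genes. The receptor's own 5' end was the nearest of any coding gene at 53 of the 60. For nhr-130 and nhr-148 the nearer gene was also a receptor gene. When each summit was given to the nearest coding gene only, 54 of the 60 receptor genes and 3596 of the 4127 coding genes kept a pooled peak.

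**Figure D4:**
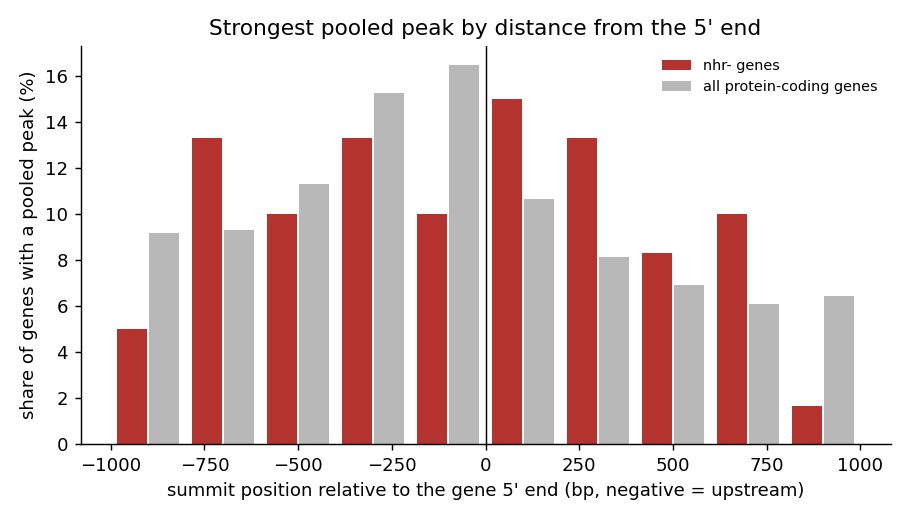
Position of the strongest pooled summit relative to the gene 5' end, in bins of 200 bp (horizontal axis, negative upstream), as a share of the 60 receptor genes (red) and of the 4127 protein-coding genes with a pooled peak (grey). The coding genes are most frequent in the bin just upstream (16.5%), and the receptor genes in the bin just downstream (15%, 9 genes). The receptor bins from -800 to -600, -400 to -200 and 200 to 400 bp hold 8 genes each, so that order rests on few genes.

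Short motifs were counted on both strands in the 101 bases around the 58 distinct receptor summits. The hormone receptor half-site AGGTCA was in 0 of 58, against 2.13% of 3564 summits of all coding genes, and the related AAGTCA in 2 (3.45%, against 3.90%). GAGAGA was in 5 (8.62%, against 8.25%). Those 5 include nhr-1, nhr-32 and nhr-256, as the sequences printed above show, so 3 of the 5 receptor genes down to the rank of nhr-280 held it, a limit chosen after the sequences were seen. Of the 267 coding-gene summits down to that rank, 30 (11.2%) did. The windows of nhr-1 and nhr-32 each had 47.5% GC, against a mean of 33.9% over the receptor windows and 38.1% over those 267. In the 101 bases before the 5' end, whether or not a peak lay there, GAGAGA was present at 46 of 269 receptor genes (17.1%) and 8.86% of all protein-coding genes, AGGTCA at 13 (4.83%, against 3.12%) and AAGTCA at 17 (6.32%, against 4.67%).

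Among 5 receptor genes with other names (daf-12, fax-1, odr-7, sex-1 and unc-55) none had a pooled peak, against 20.7% of all protein-coding genes, a share that 5 genes are too few to be set against. Of these only daf-12, the receptor for dafachronic acids, had one, in replicate 1 alone (21.6, rank 1512). Of 15 genes for ligand synthesis, coregulators and lipid targets, 2 had a pooled peak and 3 had peaks in both replicates, next to 20.7% and 26.8% of all protein-coding genes. At din-1, which encodes a corepressor of DAF-12, the pooled signal was 41.8 (rank 459), with 35.5 in replicate 2 (rank 46) and 15.5 in replicate 1 (rank 6965). The strongest replicate peaks lay 808 bp apart, and the pooled peak overlapped a peak of each replicate. At cbp-1, the p300 and CBP coactivator gene, the pooled signal was 36.4, with 18.6 in replicate 1 and 18.9 in replicate 2 and summits 7 bp apart. The last of them, sbp-1, a regulator of fat synthesis, had 9.82 and 14.2 with no pooled peak. For comparison, peaks in both replicates lay beside 33.3% of 63 homeobox genes named ceh-, 28.4% of 74 cytochrome P450 genes named cyp- and 17.9% of 156 collagen genes named col-.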

How the data were processed

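The measurements were the authors' ChIP-seq peak lists of 2 biological replicates in narrowPeak format. The deposited notes trace a replicate list to 1 library plus control, the pooled list to both libraries, and the strict list to these. The sources used here do not name the aligner, caller or thresholds. Peak signal is the authors' deposited value; the deposited −log10 column was read as a q-value within each list. Depth was unknown, so peak signal gives no counting error.

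All coordinates are on ce11, counted from 1, with gene 5' ends from Ensembl 115 and sequence from RefSeq WBcel235. A peak belonged to every protein-coding gene with its 5' end within 1000 bp of the summit, and the strongest by signal was kept. Overlap meant at least 1 bp. Matches elsewhere were BLAST 2.17.0 alignments of at least 50 bp and 90% identity. The ce10 thresholded list was read for signals only.

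The members, gene lists and motifs were chosen with earlier results of these data known, so no test was run and shares are set beside those of all protein-coding genes. The text names the 25 strongest members with peaks in both replicates, nhr-11, fixed lists by role, and 2 genes on either side of the window edge. Intervals are 95% Wilson intervals, and the limit for a count of 0 is 3 counts. Alternatives were windows of 500 and 2000 bp, transcript 5' ends, the nearest gene only, added receptor genes, the top 10000 replicate and top 5000 pooled peaks, 50% reciprocal overlap, ranking by q-value and leaving out each replicate. The ce10 threshold, unmatched sites and summits counted once were added after the data were seen. The assignment of summits was tested on simulated data. Scripts ran in Python 3.11.15 with pandas 2.3.3, numpy 2.4.6, matplotlib 3.10.9 and scipy 1.17.1.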

Additional observations from a re-analysis of the deposited data

How the results depend on the processing

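Counts followed the window and the depth of list used, and so did the background. With a window of 500 bp, 37 receptor genes had a pooled peak (13.8%, against 13.2% of coding genes), 34 had peaks in both replicates (12.6%, against 13%), 22 had a pooled peak overlapping both (8.18%, against 8.48%), and 22 had peaks in both on chromosome V (13.2%, against 10.1%). At 2000 bp, 139 had peaks in both (51.7%, against 49.6%) and 83 had a pooled peak (30.9%, against 33.2%). An overlap with both was found at 55 (20.4%, against 21.2%), and chromosome V had 80 with peaks in both (47.9%, against 43.7%). Over all chromosomes, the higher receptor shares at 1000 bp thus did not all hold at the other windows. At 500 bp only the pooled share stayed above the coding share, and at 2000 bp only the share with peaks in both. With the stronger part of each list, 31 had a pooled peak (11.5%, against 11.5%), 22 had peaks in both (8.18%, against 6.69%), 14 had an overlap with both (5.20%, against 4.49%) and 12 had peaks in both on chromosome V (7.19%, against 4.67%). The pooled share of chromosome X was 34.8% at 500 bp (against 13.8%), 56.5% at 2000 bp (against 37.7%) and 21.7% in the stronger part (5 of 23, against 12.6%). On chromosome V the share of overlaps with both was 8.38% at 500 bp (against 6.19%) and 16.8% at 2000 bp (against 16.9%). In the stronger part it was 4.79% (against 2.88%). Leaving out a replicate, which drops the demand for both, gave 129 to 139 genes (48 to 51.7%, against 44.8 to 49.2% of coding genes), with 83 to 86 on chromosome V. The coding share of chromosome V was not counted for this setting. Pooled peaks were then replaced by as many of the remaining replicate's strongest peaks as the pooled list holds. Without replicate 1, 58 of 269 receptor genes had such a peak, a share above the 20.8% of coding genes. Without replicate 2 it was 52 of 269, a share below the 20.3% of coding genes. A pooled peak overlapped the remaining replicate at 49 to 50 receptor genes and at 16.7 to 17.2% of coding genes. Under the remaining alternatives, pooled peaks numbered 54 to 68, peaks in both 78 to 96, overlaps with both 33 to 46, and peaks in both on chromosome V 49 to 56. The lowest counts came with the nearest gene only. There the receptor shares were 20.1%, 29%, 12.3% and 29.3%, against 18.0%, 22.6%, 11.5% and 18.9% of coding genes. The highest came with transcript 5' ends, where the coding shares were 22.8%, 30.6%, 14.8% and 25.7%. At the lowest signal of the ce10 list, 85 genes remained below the threshold, nhr-1 passing it. Ranking by q-value kept the same strongest pooled peak for all 60 genes. No paired analysis was possible because the samples form 1 group and no test was run.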
